A study of Homo sapiens with 24 samples.

Results

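The insulin-like growth factor 2 mRNA-binding proteins were examined together with the LIN28 and HMGA genes, 7 of the 58174 genes in the 4 tables. The members were IGF2BP1, IGF2BP2, IGF2BP3, LIN28A, LIN28B, HMGA1 and HMGA2, found by gene symbol, and each symbol matched 1 gene in every table. They were chosen with earlier results of these data known. Ribosomal-RNA-depleted total RNA had been sequenced from 4 established human cancer cell lines. A549 derives from a lung cancer, ES-2 (ES2) from an ovarian cancer, MV3 from a melanoma and PANC-1 (PANC1) from a pancreatic cancer. Each line was transfected with control siRNA (siC) or with a paralogue-specific siRNA pool against IGF2BP1 (siI1), with 3 libraries per group and 24 in all. A549, ES2 and MV3 cells were harvested 72 h and PANC1 cells 96 h after transfection, so that line and harvest time cannot be told apart for PANC1. Each line was knocked down with 1 siRNA pool only, and no rescue was included in these libraries.

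IGF2BPs are RNA-binding proteins that associate with mRNAs, often protecting them from decay. Of these, IGF2BP1 is described by the study's authors as oncofetal and as elevated in many tumors. LIN28A and LIN28B bind the precursors of the let-7 microRNAs and block their maturation, while HMGA1 and HMGA2 are DNA-binding chromatin proteins. The mature let-7 microRNAs, which accumulate with differentiation, target the 3'UTRs of HMGA2, LIN28B and IGF2BP mRNAs, and for this shared link the members are often described as an oncofetal let-7 axis.

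The let-7 microRNAs share their seed, the bases that pair with the target. Of 2370 mature human microRNA names in RefSeq (GRCh38.p14), 11 carried this seed, 8 of them named let-7. Representative members are shown because the matches described here depend on the seed, which is in capitals (bases 2 to 8):

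hsa-let-7a-5p: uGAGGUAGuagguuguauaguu

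hsa-let-7d-5p: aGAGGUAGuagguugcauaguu

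hsa-let-7g-5p: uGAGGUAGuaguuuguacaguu

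hsa-miR-98-5p: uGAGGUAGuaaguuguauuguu

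The 3'UTR of the MANE Select transcript of every member (GENCODE 44, hg38) held at least 1 match to the seed, that is the letters CTACCTC on the transcript strand. IGF2BP1, LIN28B and HMGA2 held 4 matches each. Across 18653 genes, 9.88% held at least 1 match and 0.0643% (12 genes) held 4 or more. Longer 3'UTRs hold more matches by length alone, and among genes with a 3'UTR of 0.8 to 1.25 times the length, 0.387% held as many as IGF2BP1 (6701 bases), 0.124% as many as LIN28B (4549 bases) and 0.0422% as many as HMGA2 (2999 bases). IGF2BP2, IGF2BP3, LIN28A and HMGA1 held 1 match each, and 13.1%, 12.1%, 16.7% and 8.72% of the genes of similar 3'UTR length held at least 1. The members were grouped for their link to let-7, so these counts describe them and are not a test.

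The matches in the members with 4 are shown with the 15 bases before them, and the single match of HMGA1 is shown because this gene changed in opposite directions between lines. Capitals mark the match, which includes the A opposite the first base of the microRNA where present (an 8-base match).

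IGF2BP1, chr17:49051061-49051083, plus strand: tgtgtgcgaagtaaaCTACCTCA

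IGF2BP1, chr17:49053698-49053720, plus strand: cagcagtgctagtaaCTACCTCA

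IGF2BP1, chr17:49054352-49054374, plus strand: gtataaatggattaaCTACCTCA

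IGF2BP1, chr17:49054997-49055019, plus strand: tcacttttgttttatCTACCTCt

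LIN28B, chr6:105078812-105078834, plus strand: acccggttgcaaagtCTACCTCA

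LIN28B, chr6:105081239-105081261, plus strand: tactgatgatagtaaCTACCTCt

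LIN28B, chr6:105081421-105081443, plus strand: gtttacagcaaaaggCTACCTCA

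LIN28B, chr6:105082860-105082882, plus strand: aaatgatggtgttgaCTACCTCt

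HMGA2, chr12:65963298-65963320, plus strand: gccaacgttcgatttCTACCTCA

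HMGA2, chr12:65964533-65964555, plus strand: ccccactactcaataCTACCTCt

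HMGA2, chr12:65964945-65964967, plus strand: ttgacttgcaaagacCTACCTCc

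HMGA2, chr12:65965798-65965820, plus strand: aatcaaaacacactaCTACCTCt

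HMGA1, chr6:34245829-34245851, plus strand: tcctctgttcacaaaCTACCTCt

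On hg38 the genes lie at chr17:48997385-49056145 (IGF2BP1), chr6:104936616-105083332 (LIN28B), chr12:65824460-65966291 (HMGA2) and chr6:34236873-34246231 (HMGA1), all on the plus strand, and LIN28A lies at chr1:26410817-26429728, also on the plus strand. IGF2BP2 (chr3:185643130-185825042) and IGF2BP3 (chr7:23310209-23470491) lie on the minus strand. All sites shown lie in the 3'UTR and within 1 exon. Of the IGF2BP1 sites, 3 were 8-base matches, against 2 of the LIN28B sites, 1 of the HMGA2 sites and 0 in HMGA1. HMGA2 and LIN28B each had a match close to the stop codon, starting at base 21 and base 44 of the 3'UTR. The longest annotated 3'UTR of HMGA2 belongs to another transcript (7421 bases) and held 0 matches, so the count for HMGA2 holds for the MANE Select transcript.

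**Figure D1:**
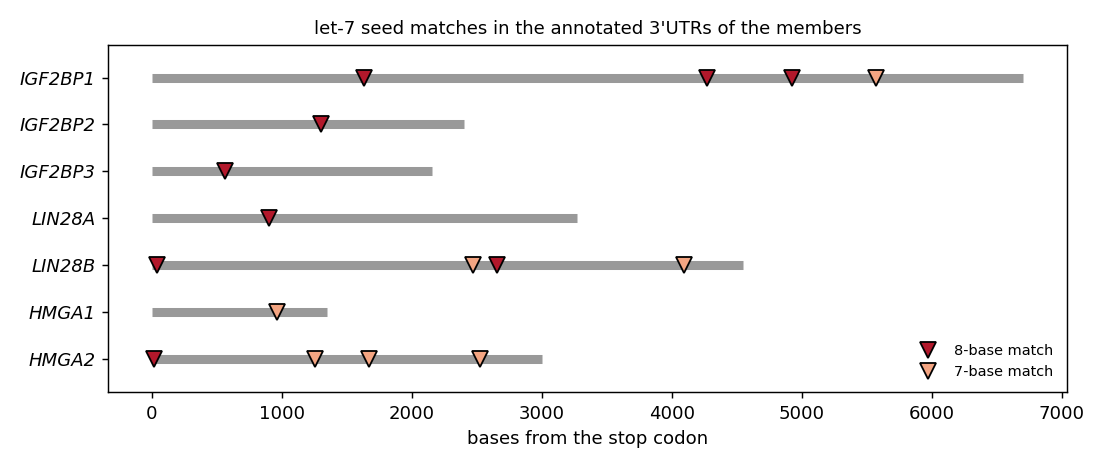
Each grey bar is the MANE Select 3'UTR of a member, drawn to scale in bases from the stop codon (x axis), and triangles mark let-7 seed matches, dark for 8-base and light for 7-base matches. IGF2BP1, LIN28B and HMGA2 hold 4 matches each and the other members 1.

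Recovered reads summed to 3105215 to 4553326 per library in A549, 6421764 to 8419467 in ES2, 15572492 to 20082702 in MV3 and 6532175 to 8472851 in PANC1, so values in A549 rest on the fewest reads. The signal recognition particle RNA RN7SL2 took 8.74 to 12.8% of the reads in the PANC1 siC libraries and 17.7 to 20.9% in the PANC1 siI1 libraries, against 3.44 to 8.93% in the other lines. Lineage markers did not bear out every tissue of origin. In siC, MV3 had the melanocyte genes SOX10, TYR, DCT and S100B at 0 and MITF at 0.319 FPKM, A549 had the lung genes NKX2-1, SFTPB and SFTPC at 0, and ES2 had the ovarian cancer marker MUC16 at 0. Of the epithelial markers, ES2 had EPCAM, CDH1 and KRT19 at 0 but KRT7 at 103.5, KRT18 at 44.4 and KRT8 at 9.01 FPKM. PANC1 had the epithelial markers KRT8 at 717, KRT19 at 617, KRT18 at 201, CDH1 at 4.55, EPCAM at 3.59 and KRT7 at 2.88 FPKM. Of the pancreatic factors, it had SOX9 at 18.2, PDX1 at 1.70 and GATA6 at 0.0597 FPKM, with PTF1A at 0. SOX9 and GATA6 were both higher in ES2 (22.5 and 4.31 FPKM). Of 7 blood and endothelial markers, only CD14 in A549 exceeded 1 FPKM in siC (2.48).

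Levels are given in FPKM (fragments per kilobase of listed gene length, scaled for library size), a scale that allows genes to be compared per length. The tables had been normalized separately for each line, so the order of the lines is a description without a test. In siC, HMGA1 had the highest level of the members in all 4 lines and LIN28A the lowest. By FPKM, IGF2BP1 was the most abundant IGF2BP mRNA in A549, whereas IGF2BP2 led in ES2, MV3 and PANC1. This order depends on the listed lengths, 9109 bases for IGF2BP1, 4735 for IGF2BP2 and 8511 for IGF2BP3. In PANC1 siC, IGF2BP3 had more reads (944 to 1156 per library) than IGF2BP2 (561 to 727), although its FPKM was lower.

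IGF2BP1 was 39.7 ± 0.0742 FPKM in A549, 13.1 ± 0.915 in ES2, 11.1 ± 0.15 in PANC1 and 9.26 ± 0.325 in MV3 (mean ± SD, n = 3). The 3 libraries of neighbouring lines did not overlap, but ES2 and PANC1 did after a joint rescaling of the 24 libraries. IGF2BP2 followed another order, with 37.3 ± 1.59 FPKM in MV3, 29.1 ± 1.08 in ES2, 17.3 ± 0.808 in PANC1 and 10.1 ± 1.19 in A549, without overlap of neighbours. Thus A549 had the highest IGF2BP1 and the lowest IGF2BP2 level, and MV3 the reverse. IGF2BP3 varied least, from 20.8 ± 0.634 FPKM in MV3 to 9.83 ± 0.806 in ES2, a ratio of 2.12, and PANC1 (15.1 ± 1.27) and A549 (14.4 ± 0.338) overlapped, though not after the joint rescaling.

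LIN28B was 6.13 ± 0.516 FPKM in MV3, 3.45 ± 0.581 in A549, 2.096 ± 0.314 in PANC1 and 0.851 ± 0.077 in ES2 (n = 3), a ratio of 7.21 between the extremes, with A549 and PANC1 overlapping after the joint rescaling only. Only 31 to 37 reads per siC library lay behind the ES2 value. Its paralogue LIN28A was practically absent. It had 0 reads in every library of A549, ES2 and MV3, and 1, 1 and 3 reads in the siC and 1, 0 and 1 reads in the siI1 libraries of PANC1. A count of 0 allows up to 3 reads, which in the shallowest library is 0.233 FPKM for A549, 0.117 for ES2 and 0.0497 for MV3, for counting error only. LIN28A was therefore not tested.

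HMGA1 reached 669 ± 16.6 FPKM in ES2, 326 ± 25.2 in MV3, 148 ± 12.01 in PANC1 and 88.0 ± 9.80 in A549, without overlap (n = 3). HMGA2 was 47.1 ± 0.563 FPKM in MV3, 10.7 ± 0.687 in PANC1, 8.73 ± 0.659 in A549 and 8.37 ± 0.370 in ES2, and the A549 and ES2 libraries overlapped. HMGA2 levels are divided by a listed length of 15403 bases, the sum over all annotated exons, which exceeds that of the MANE Select transcript and lowers its FPKM. ES2, with the highest HMGA1 level, had the lowest HMGA2 and LIN28B levels, and MV3 had the highest IGF2BP2, IGF2BP3, LIN28B and HMGA2 levels.

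**Figure D2:**
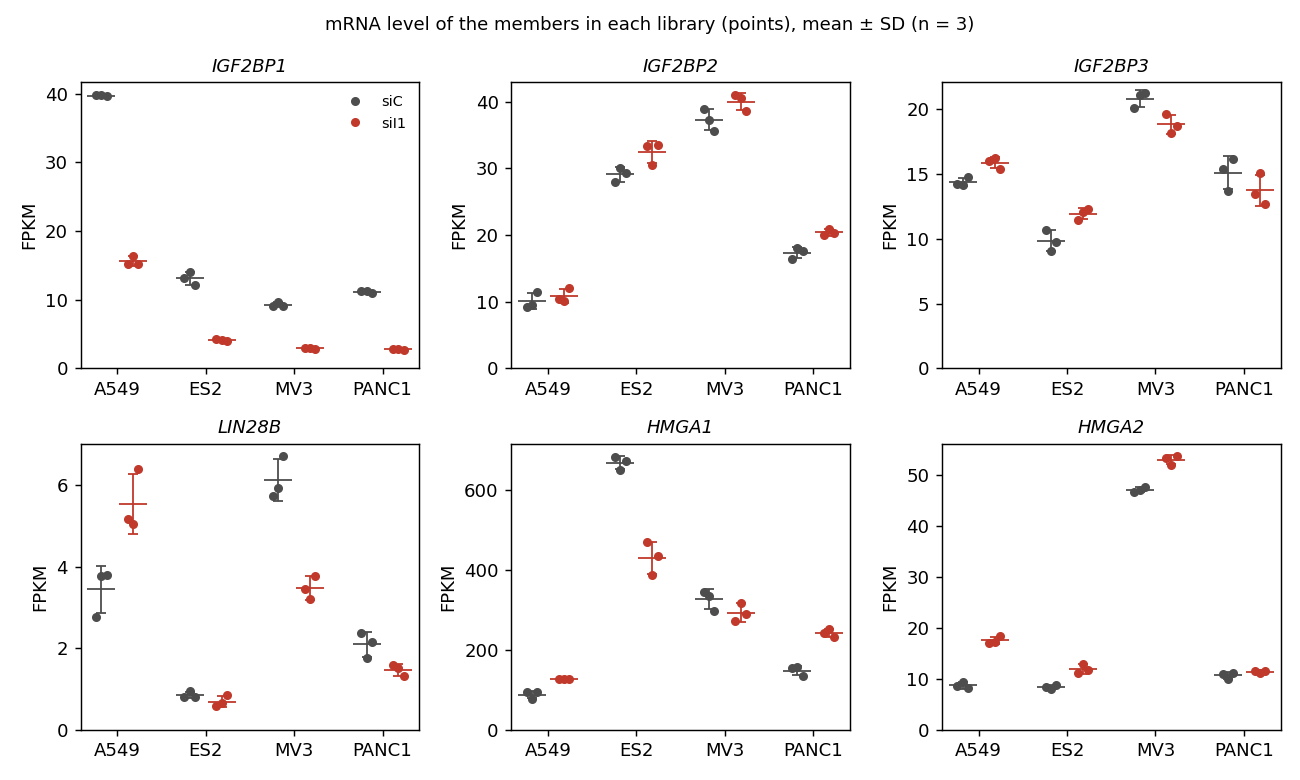
FPKM (y axis, linear, from 0) of 6 members in each library, by line (x axis) and siRNA (grey, siC; red, siI1), with points for libraries and bars for the mean ± SD of 3 libraries. IGF2BP1 falls in all 4 lines, HMGA1 moves in opposite directions in A549 and ES2, and LIN28B in A549 and MV3.

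To see how the members responded to IGF2BP1 depletion, siI1 was compared with siC within each line by limma on log2(FPKM + 0.5), with p-values adjusted over all genes tested in the line. Fold changes are on this scale, and for a gene of low level such as LIN28B they are smaller than the ratio of the FPKM values. In A549, 3 of 6 members tested were higher and 1 lower (background 5.93% and 7.83% of 18411 genes). In ES2, 2 were higher and 2 lower (10.5% and 13.0% of 16920 genes). In MV3, 1 was higher and 3 lower (16.3% and 19.5% of 16380 genes). In PANC1, 2 were higher and 1 lower (11.3% and 13.4% of 15846 genes). Of these calls, the lower one in every line was or included IGF2BP1, the mRNA targeted by the siRNAs. Without it, 11 of 20 tests passed the threshold, 8 higher and 3 lower, a count to be read beside the shares of each line above. Among these calls, LIN28B in A549, IGF2BP3 in ES2 and MV3 and IGF2BP2 in PANC1 were lost in several refits.

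The knockdown of IGF2BP1 was read in every library. In A549, IGF2BP1 was 39.8, 39.8 and 39.6 FPKM in siC and 15.3, 16.4 and 15.2 FPKM in siI1. In ES2 it was 13.1, 14.0 and 12.1 FPKM against 4.22, 4.19 and 4.03 FPKM. All siI1 libraries lay well below all siC libraries in these lines. In MV3 the values were 9.09, 9.64 and 9.06 FPKM in siC and 3.02, 2.95 and 2.77 FPKM in siI1. In PANC1 they were 11.2, 11.3 and 11.0 FPKM against 2.75, 2.87 and 2.71 FPKM. The mean level was thus 75.1% lower in PANC1, 68.6% in MV3, 68.3% in ES2 and 60.6% in A549. In such bulk samples fewer expressing cells and less RNA per cell cannot be told apart. On the log2 scale IGF2BP1 fell by 1.83 (SE 0.06, adjusted p = 0.000227) in PANC1 and by 1.32 (SE 0.05, adjusted p = 0.000319) in A549. The falls in MV3 (-1.52, SE 0.05, adjusted p = 5.93e-05) and ES2 (-1.55, SE 0.07, adjusted p = 0.000115) lay between. The fall differed between the lines (limma interaction F test, adjusted p = 9.77e-05), while over the 3 lines harvested at 72 h the test missed the threshold (adjusted p = 0.0551). The level left in A549 after knockdown, 15.6 ± 0.674 FPKM, exceeded the siC level of each of the other lines.

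The paralogues IGF2BP2 and IGF2BP3 changed little. In PANC1, IGF2BP2 was 16.5, 18.0 and 17.5 FPKM in siC and 19.9, 20.9 and 20.3 FPKM in siI1, a log2 fold change of 0.23 (SE 0.06, adjusted p = 0.0302). This rise passed the threshold, but was no longer called when any library other than siC replicate 2 was left out, nor when all libraries were scaled to the same number of reads (0.07, adjusted p = 0.438). In the other lines the log2 fold changes of IGF2BP2 were 0.11 (adjusted p = 0.593) in A549, 0.16 (adjusted p = 0.0931) in ES2 and 0.10 (adjusted p = 0.110) in MV3. All 4 estimates were above 0, and a difference between lines was not shown (adjusted p = 0.660).

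IGF2BP3 was 10.7, 9.08 and 9.74 FPKM in the siC and 11.5, 12.04 and 12.3 FPKM in the siI1 libraries of ES2, a log2 fold change of 0.27 (SE 0.07, adjusted p = 0.0419). In MV3 it went the other way, with 20.1, 21.1 and 21.2 FPKM in siC and 19.6, 18.2 and 18.7 FPKM in siI1, a log2 fold change of -0.14 (SE 0.04, adjusted p = 0.0370). The groups did not overlap in either line, yet both calls were close to the threshold. Leaving out any library but siC replicate 1 ended the call in ES2, as did leaving out siC replicate 2 or 3 or siI1 replicate 2 or 3 in MV3. In A549 the log2 fold change was 0.14 (adjusted p = 0.171) and in PANC1 -0.13 (adjusted p = 0.340). The effect of the knockdown on IGF2BP3 differed between the 4 lines (adjusted p = 0.00256).

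The summed FPKM of the 3 paralogues was 64.2 ± 1.44 in A549 siC and 42.4 ± 0.661 in siI1 (n = 3). It was 43.6 ± 0.956 and 36.9 ± 1.69 for PANC1, 67.3 ± 1.19 and 61.7 ± 1.78 for MV3, and 52.0 ± 0.95 and 48.5 ± 1.59 for ES2. IGF2BP1 made up 61.9% of this sum in A549 siC and 36.9% in siI1. In the other lines its share was 25.6% and 7.53% (PANC1), 25.1% and 8.55% (ES2), and 13.8% and 4.72% (MV3). Sums and shares are given without a test and rest on the same listed lengths.

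**Figure D3:**
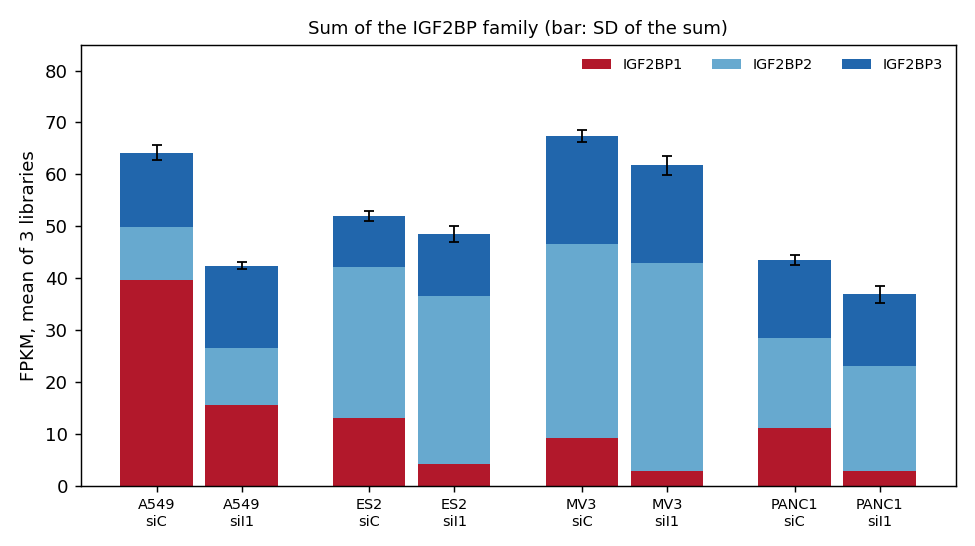
Stacked bars give the mean FPKM (y axis, from 0; n = 3) of IGF2BP1 (red), IGF2BP2 (light blue) and IGF2BP3 (dark blue) per line and siRNA, and the error bar is the SD of the sum. The sum is 64.2 FPKM in A549 siC and 42.4 FPKM in A549 siI1, the widest step of the 4 lines, and IGF2BP1 holds 61.9% of it in A549 siC.

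LIN28B rose in A549 and fell in MV3. Its values in A549 were 2.78, 3.77 and 3.80 FPKM in siC and 5.18, 5.06 and 6.39 FPKM in siI1, a log2 fold change of 0.62 (SE 0.16, adjusted p = 0.0486). In MV3 they were 5.75, 5.93 and 6.72 FPKM in siC and 3.45, 3.21 and 3.78 FPKM in siI1, a log2 fold change of -0.73 (SE 0.08, adjusted p = 0.00109). The libraries of both groups were separate in both lines. The A549 call rested on 68 to 138 reads per library and was lost when any 1 of the 6 libraries was left out (adjusted p 0.0925 to 0.141), whereas the MV3 call was kept in each case. In PANC1, LIN28B was 2.38, 1.76 and 2.14 FPKM in siC and 1.58, 1.52 and 1.31 FPKM in siI1, a log2 fold change of -0.39 (SE 0.14, adjusted p = 0.0908). This difference was called by voom on the recovered reads (-0.49, adjusted p = 0.0440). In ES2 the groups overlapped (0.804, 0.940 and 0.808 against 0.570, 0.647 and 0.848 FPKM; adjusted p = 0.530). The effect differed between lines (adjusted p = 6.11e-05).

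HMGA1 was called in both directions. Its reads could be shared with processed pseudogenes, which was not tested. The HMGA1 pseudogenes had at most 24 reads in any library, beside 710 or more for HMGA1. The sources used here do not give how reads matching several genes were counted, so these counts cannot show whether reads were shared. It rose in A549, with 93.5, 76.7 and 93.8 FPKM in siC and 127, 127 and 128 FPKM in siI1, a log2 fold change of 0.54 (SE 0.08, adjusted p = 0.0109). It also rose in PANC1, from 154, 156 and 134 FPKM to 243, 252 and 232 FPKM, a log2 fold change of 0.71 (SE 0.08, adjusted p = 0.00223). In ES2, the line with the highest HMGA1 level, it fell from 683, 650.3 and 673 FPKM to 469, 387 and 434 FPKM, a log2 fold change of -0.64 (SE 0.08, adjusted p = 0.00244). No siI1 library overlapped a siC library in these 3 lines. In MV3 the groups overlapped (345, 336 and 298 against 271, 318 and 291 FPKM) and the log2 fold change was -0.15 (SE 0.08, adjusted p = 0.180), although voom on the recovered reads called it (adjusted p = 0.0122). The effects differed between lines (adjusted p = 1.79e-07), also among those harvested at 72 h (adjusted p = 2.12e-05).

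The rise of HMGA1 in PANC1 depends on the scaling. Scaling the libraries to the same sum of FPKM, which gives short abundant RNAs such as RN7SL2 more weight, took the median over all PANC1 genes from -0.04 to -0.68 on the log2 scale, and HMGA1 was then at -0.04 (adjusted p = 0.787). The fall of IGF2BP1 in PANC1 went from -1.83 to -2.52 under this scaling. Relative to the median of all genes HMGA1 was 0.75 higher with the deposited scaling, 0.72 with equal read sums and 0.64 with equal FPKM sums. HMGA2 and IGF2BP2 changed sign in PANC1 under the equal FPKM sums (-0.64 and -0.51, both then called lower), HMGA2 also under equal read sums (-0.07), but both stayed above the median of all genes, by 0.04 and 0.17 under the equal FPKM sums. The part of RN7SL2 in these results was not tested.

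HMGA2 was higher after knockdown in 3 lines. In A549 it was 8.61, 9.45 and 8.15 FPKM in siC and 17.1, 17.2 and 18.4 FPKM in siI1, a log2 fold change of 0.97 (SE 0.08, adjusted p = 0.00136). In ES2 it was 8.44, 7.97 and 8.69 FPKM against 11.0, 12.9 and 11.6 FPKM, a log2 fold change of 0.48 (SE 0.07, adjusted p = 0.00609). The siC and siI1 libraries were separate in both. In MV3, where HMGA2 was most abundant, the values were 46.6, 47.1 and 47.7 FPKM in siC and 53.3, 52.0 and 53.6 FPKM in siI1, a log2 fold change of 0.17 (SE 0.03, adjusted p = 0.00394). This is a small change with a narrow spread, and 59.5% of the MV3 genes tested had a change at least as large in either direction. PANC1 libraries overlapped (11.0, 9.92 and 11.2 against 11.6, 11.1 and 11.4 FPKM; log2 fold change 0.09, SE 0.07, adjusted p = 0.398). The size of the effect differed between lines (adjusted p = 5.09e-07), and between those harvested at 72 h (adjusted p = 2.24e-05).

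**Figure D4:**
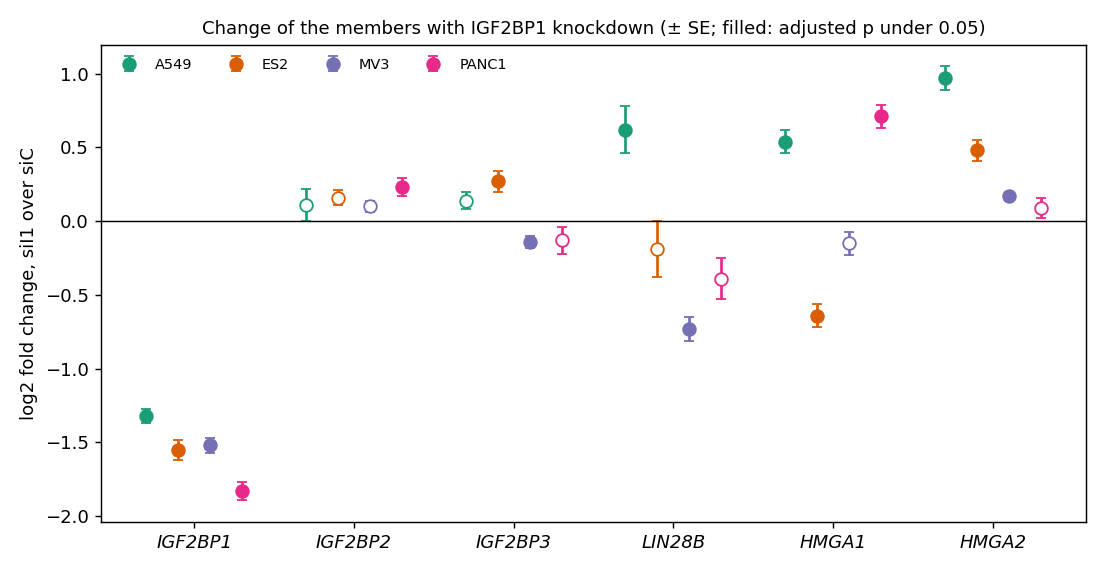
Points give the log2 fold change of siI1 over siC (y axis) with its SE for 6 members in 4 lines (colors), filled where the adjusted p is under 0.05. IGF2BP1 lies between -1.83 and -1.32, HMGA2 runs from 0.97 in A549 to 0.09 in PANC1, and HMGA1 and LIN28B lie on both sides of 0.

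The knockdown effect thus differed between lines for 5 of the 6 members tested, against 45.0% of 12816 genes. A549 was the only line in which HMGA1, HMGA2 and LIN28B were all called higher. HMGA1 and HMGA2, which act on chromatin in related ways, went in opposite directions in ES2 (-0.64 and 0.48). LIN28B and HMGA2, both with 4 seed matches, did so in MV3 (-0.73 and 0.17).

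The proteins that make or turn over let-7 were examined as a list of 11 genes, all tested in each line. In A549, 1 was lower and 3 higher (9.09% and 27.3%, beside 7.83% and 5.93% of all genes tested). In ES2, 2 were lower and 2 higher (18.2% each, beside 13.0% and 10.5%). The MV3 counts were 4 and 2 (36.4% and 18.2%, beside 19.5% and 16.3%), and those of PANC1 2 and 1 (18.2% and 9.09%, beside 13.4% and 11.3%). With 11 genes, 1 gene is 9.09% of the list, so the shares in ES2 and PANC1 and the share of higher genes in MV3 lay within 1 gene of those of all genes, as did the share of lower genes in A549. The medians of the list were -0.07, -0.14, -0.14 and -0.19, beside -0.01, -0.02, 0.01 and -0.04 for all genes tested. KHSRP, an RNA-binding protein that promotes let-7 maturation, fell in A549 (-0.40, adjusted p = 0.00844), ES2 (-0.48, adjusted p = 0.00183) and MV3 (-0.57, adjusted p = 0.00019), with -0.20 (adjusted p = 0.060) in PANC1. AGO2, the effector that carries mature microRNAs, fell in ES2 (-0.31), MV3 (-0.36) and PANC1 (-0.44), with -0.14 (adjusted p = 0.323) in A549. In contrast DICER1, the nuclease that cuts let-7 precursors, rose in A549 (0.56, adjusted p = 0.00358), ES2 (0.56, adjusted p = 0.00127) and MV3 (0.30, adjusted p = 0.00282), the same 3 lines as HMGA2, and was at 0.07 (adjusted p = 0.590) in PANC1. TARBP2, the partner of DICER1, rose in A549 (0.39) and PANC1 (0.62; -0.10 under equal FPKM sums). DROSHA fell in MV3 (-0.25) and PANC1 (-0.22) and its partner DGCR8 fell in MV3 (-0.21). In PANC1 the counts of this list became 4 lower and 1 higher with equal read sums, beside 3487 and 1047 of all 15846 genes tested. With equal FPKM sums they became 10 and 0, beside 8844 and 95 of all genes tested. KHSRP was called lower under both (-0.37 and -0.95) and DICER1 under the latter (-0.64, adjusted p = 0.0293). The medians over all PANC1 genes were -0.18 and -0.68 under these scalings. Of the genes that modify or degrade LIN28-bound precursors, TUT4 rose in MV3 (0.28, adjusted p = 0.0466) and was at -0.38 in PANC1 (adjusted p = 0.104), while TUT7 and DIS3L2 passed the test in none of the lines with the deposited scaling. The effects differed between the lines for DICER1 (adjusted p = 0.000184), TARBP2 (adjusted p = 0.000908), KHSRP (adjusted p = 0.00255), TUT4 (adjusted p = 0.0319) and AGO2 (adjusted p = 0.0322). They also differed for XPO5 (adjusted p = 2.67e-05), which was called higher in A549 (0.33), and for TRIM25 (adjusted p = 0.00256). A difference was not shown for DROSHA, DGCR8, TUT7 and DIS3L2.

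Other known let-7 target mRNAs, 24 in the list, moved in both directions. Of 22 tested in A549, 4 were lower and 3 higher (18.2% and 13.6%, beside 7.83% and 5.93% of all genes tested). Of 20 in ES2, 3 were lower and 3 higher (15% each, beside 13.0% and 10.5%), close to all genes. Of 23 in MV3, 8 were lower and 3 higher (34.8% and 13.0%, beside 19.5% and 16.3%), and of 22 in PANC1 5 and 5 (22.7% each, beside 13.4% and 11.3%). The medians were -0.08, -0.05, -0.12 and -0.10. The PANC1 counts became 7 lower and 4 higher with equal read sums, beside 3487 and 1047 of all 15846 genes tested. With equal FPKM sums they became 17 and 0, beside 8844 and 95 of all genes tested, whose median was then -0.68. The kinase gene CDK6 fell in A549 (-0.64), MV3 (-0.25) and PANC1 (-1.07, adjusted p = 0.00061). CDC25A, a phosphatase that activates cyclin-dependent kinases, fell in ES2 (-0.62), MV3 (-0.96, adjusted p = 0.000223) and PANC1 (-0.31). NRAS fell in MV3 (-0.30) and PANC1 (-0.85), TGFBR1 in A549 (-0.33) and PANC1 (-0.69), and the helicase gene DNA2 in MV3 (-0.45) and PANC1 (-0.70). The rise of HMGA2 in A549, ES2 and MV3 therefore stood beside falls of other let-7 targets in the same lines, and beside the rise of DICER1, which is also in this list.

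**Figure D5:**
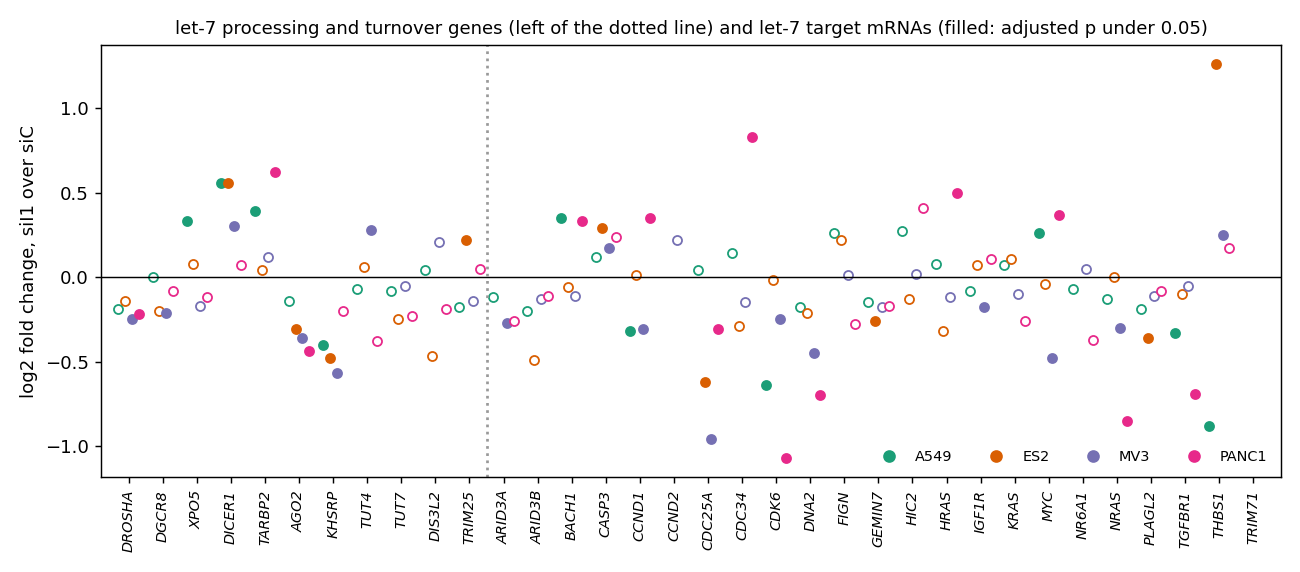
Log2 fold changes of siI1 over siC (y axis) for let-7 processing and turnover genes (left of the dotted line) and let-7 target mRNAs (right; DICER1, in both lists, is drawn once) in 4 lines (colors), filled where the adjusted p is under 0.05. DICER1 rises in 3 lines, KHSRP and AGO2 fall in 3 lines each, and the target mRNAs lie on both sides of 0.

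Another list was taken from sequence. Besides the members, 252 genes held at least 2 seed matches in their longest annotated 3'UTR. Of those tested, 15.7% were lower and 7.30% higher in A549, beside 11.4% and 7.97% of all genes with a 3'UTR. The shares were 13.0% and 12.4% in ES2 (beside 18.0% and 13.4%), 26.5% and 14.8% in MV3 (beside 26.9% and 19.6%) and 20.5% and 16.3% in PANC1 (beside 17.4% and 13.6%). The medians of this list lay within 0.1 of those of all genes with a 3'UTR in each line. Counted in MANE Select 3'UTRs, as for the members, 216 other genes held at least 2 matches. Their median in PANC1 was -0.17 beside -0.04, with 22.2% lower and 13.9% higher (beside 17.5% and 13.6%). In ES2 it was 0.01 beside -0.03, with 13.8% lower and 10.3% higher (beside 18.0% and 13.4%). In A549 and MV3 it was -0.05 in both, beside -0.03 and -0.02. For the 34 genes with at least 2 8-base matches in the longest 3'UTR, the medians were -0.18 beside -0.03 in A549 and -0.19 beside -0.04 in PANC1. They were -0.11 beside -0.02 in MV3 and 0.01 beside -0.03 in ES2. In A549, 18.2% were lower and 9.09% higher (beside 11.4% and 7.97%). The shares were 9.52% and 4.76% in ES2 (beside 18.0% and 13.4%) and 23.8% and 14.3% in PANC1 (beside 17.4% and 13.6%). In MV3, 4 of 17 such genes tested were lower and 0 higher by limma (23.5% and 0%, beside 26.9% and 19.6%), and 1 was higher at an unadjusted p under 0.05 and 1 by voom. Mature let-7 microRNAs were not measured in these libraries.

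Of 15 further oncofetal and embryonic genes, 3 to 5 per line were expressed highly enough to be tested. PEG10, an imprinted gene of placental development, rose in A549 (0.48, adjusted p = 0.0147), ES2 (1.70, adjusted p = 0.000156) and MV3 (0.19, adjusted p = 0.00994), with 0.37 (adjusted p = 0.0887) in PANC1. In ES2 its level went from 7.41 ± 0.747 to 25.1 ± 1.49 FPKM (n = 3). PLAG1, a transcription factor gene, rose in ES2 (0.42) and MV3 (0.50), and SALL4, an embryonic stem cell factor, in MV3 (0.70). TPBG rose in A549 (0.38) and fell in MV3 (-0.26). The imprinted RNA H19 was tested in PANC1 alone, where it fell from 54.3 ± 6.92 to 34.1 ± 3.35 FPKM (-0.66, adjusted p = 0.00875). The pluripotency genes POU5F1 and NANOG and the let-7 target TRIM71 passed the filter in none of the lines. SOX2, another pluripotency gene, was tested in A549 alone. It was at 4.01 ± 0.574 FPKM in siC there and was not called (-0.27, adjusted p = 0.300).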

How the data were processed

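The authors trimmed paired-end reads of rRNA-depleted total RNA with cutadapt (1.14), aligned them to hg38 with HISAT2 (2.1.0), counted reads per Ensembl gene with featureCounts (1.5.3) and deposited FPKM values per library in 1 table per cell line, using edgeR (3.30.3) with TMM normalization for their comparisons. Columns of the authors' own fold changes, p-values and FDR were not used. The library kit marks strand, but the strand setting of the counting is not given in the sources used here. FPKM times listed length was a whole multiple of 1 step per library for 100% of the values (tolerance 0.001), which gave the recovered reads and their totals.

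Within each line, limma 3.58.1 (R 4.3.3; moderated test with trend, two-sided) compared siI1 with siC on log2(FPKM + 0.5) for genes averaging 0.5 FPKM or more across its 6 libraries. P-values were adjusted by the Benjamini-Hochberg method across those genes, with a threshold of 0.05. Adjusted p-values of a difference between lines are from the limma interaction F test over 24 libraries and the 12816 genes that passed in all lines. The libraries are biological replicates per the study's methods. On simulated counts the test made more false calls than its threshold allows in A549, ES2 and PANC1, nearly all among genes with few reads, so calls on few reads and the background shares, which include such genes, are less certain. Median-ratio, equal-read and equal-FPKM scaling, other pseudocounts, no filter, voom, a replicate block and leaving out each library were tried.

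Matches to the let-7 seed (CTACCTC, transcript strand) were searched in 3'UTRs of GENCODE 44, and the printed sites were checked against hg38. The gene lists were the 11 let-7 processing and turnover genes, 24 let-7 target mRNAs, 15 oncofetal and embryonic genes, 16 let-7 precursors and host transcripts, and genes with at least 2 seed matches. From each fixed list up to 6 genes were named, those with the largest mean change among genes called in at least 1 line, together with pseudogenes of the members and the 3 protein-coding genes most correlated with each member, of which 1 is not reported here. The members and lists were chosen with earlier results of these data known. MYC, THBS1, CDC34, XPO5, TRIM25, TUT4, TUT7, DIS3L2, POU5F1, NANOG, SOX2 and TRIM71 were named outside this rule, after their values were seen. Python 3.11.15 and matplotlib 3.10.9 were used.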

Additional observations from a re-analysis of the deposited data

Results flagged for a closer look

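The response of 5 members differed between lines by the limma interaction F test with Benjamini-Hochberg adjustment. HMGA1 (adjusted p = 1.79e-07) differed, rising in A549 and PANC1 (in PANC1 not under equal FPKM sums, -0.04) and falling in ES2. HMGA2 (adjusted p = 5.09e-07) rose by 0.97 on the log2 scale in A549 and by 0.17 in MV3. LIN28B (adjusted p = 6.11e-05) rose in A549 and fell in MV3, although the A549 call was lost on leaving out any 1 library. IGF2BP3 (adjusted p = 0.00256) rose in ES2 and fell in MV3, although these calls were lost in 5 and 4 of 6 fits leaving out 1 library. The fall of the targeted IGF2BP1 itself differed (adjusted p = 9.77e-05), from -1.32 in A549 to -1.83 in PANC1. The part of this in the differences of the other members was not tested.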

How the results depend on the processing

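The 24 member effects were refitted 336 times; 290 refits kept direction and call. All refits kept the calls for IGF2BP1 in 4 lines, HMGA1 in A549 and ES2, HMGA2 in A549 and ES2, and LIN28B in MV3. Leaving out 1 library gave 0.49 to 0.69 for LIN28B in A549, 0.22 to 0.33 for IGF2BP3 in ES2, -0.17 to -0.12 for IGF2BP3 in MV3 and 0.19 to 0.26 for IGF2BP2 in PANC1, with the lost calls named above; fewer libraries enter these fits.

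Without the filter LIN28B in A549 (0.62, adjusted p = 0.0811), IGF2BP3 in ES2 (0.27, adjusted p = 0.0624) and IGF2BP3 in MV3 (-0.14, adjusted p = 0.0607) lost their calls, with more genes tested. Same-numbered libraries did not deviate together (correlations from -0.262 to 0.165 within pairs), so the numbers were not taken as pairs. With the replicate block LIN28B in A549 (0.62), IGF2BP3 in ES2 (0.27) and MV3 (-0.14) and IGF2BP2 in PANC1 (0.23, adjusted p = 0.0548) lost their calls, and the numbers of genes fell to 622 lower and 379 higher in A549 (1441 and 1092 without it) and to 1443 and 1169 in ES2 (2201 and 1772). Median-ratio scaling took IGF2BP3 in MV3 to -0.12 (not called). Equal read sums gave IGF2BP2 0.19 in ES2 and 0.16 in MV3 (both called) and 0.07 in PANC1 (not called), IGF2BP3 -0.09 in MV3 (not called) and LIN28B -0.52 in PANC1 (called). Voom called HMGA1 in MV3 (-0.15) and LIN28B in PANC1 (-0.49). Equal FPKM sums, chosen after seeing the data, reversed IGF2BP2 (-0.51) and HMGA2 (-0.64) in PANC1, both called lower, and HMGA1 (-0.04, not called). They also called IGF2BP3 (-0.86) and LIN28B (-0.99) lower there and took IGF2BP1 to -2.52. In the other lines they called IGF2BP2 in ES2 (0.23) and HMGA1 in MV3 (-0.17) and lost LIN28B in A549 (0.59), IGF2BP3 in ES2 (0.34) and MV3 (-0.15) and HMGA2 in MV3 (0.16). The difference between lines for IGF2BP2 then passed (0.000661). Over the 72 h lines, also chosen later, that for IGF2BP1 did not (0.0551). The siC ratio of IGF2BP1 between A549 and MV3 was 4.29, and 4.12 after joint rescaling. In PANC1, 2131 genes were lower and 1796 higher, against 3487 and 1047 with equal read sums and 8844 and 95 with equal FPKM sums. Equal FPKM sums gave 1419 lower in ES2, and voom 2339 lower and 1837 higher in A549. Leaving out 1 library gave 752 lower and 502 higher at the lowest in A549, 1139 higher in ES2, and 1227 lower and 1014 higher in PANC1. Low reads limit LIN28B in ES2 and A549, and LIN28A throughout. Counting 8-base in place of 7-base matches left 2 of 4 sites in LIN28B, 0 of 1 in HMGA1 and 1 of 4 in HMGA2. For the other changes the cause was not tested.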

Other observations

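Mature microRNAs were not measured in these libraries, but 16 let-7 precursor and host genes were listed. In A549, 1 of 14 tested was lower (7.14%, beside 7.83% of all genes tested) and 0 were higher (beside 5.93%). In MV3, 2 of 10 were higher (beside 16.3%) and 0 lower (beside 19.5%). In PANC1, 1 of 11 was higher (9.09%, beside 11.3%) and 0 lower (beside 13.4%). With equal read sums 0 were higher and 1 lower, beside 1047 and 3487 of all 15846 genes tested. With equal FPKM sums 0 were higher and 3 lower, beside 95 and 8844 of all genes tested. In ES2 (13.0% lower and 10.5% higher over all genes), limma and voom called 0 of 13, and 1 had an unadjusted p under 0.05. In the other lines the unadjusted p was under 0.05 for 3 genes in A549, 3 in MV3 and 2 in PANC1, and voom called 2 in each. The host MIRLET7BHG, which holds let-7a and let-7b precursors, went from 8.10 ± 0.225 to 5.40 ± 1.02 FPKM in A549 (limma adjusted p = 0.047) and from 3.85 ± 0.498 to 5.38 ± 0.266 FPKM in MV3 (adjusted p = 0.0115). MIRLET7D rose in MV3 (0.49, adjusted p = 0.0431) on 13 to 29 reads per library, a depth at which calls are less certain, and WDR82, whose gene holds let-7g, rose in PANC1 (0.32, adjusted p = 0.00726). Reads of a hairpin and of its host transcript cannot be told apart here.

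Some let-7 targets moved in opposite directions between lines as HMGA1 and LIN28B did. MYC, a transcription factor that drives growth, rose in PANC1 (0.37, adjusted p = 0.00428). It also rose in A549 (0.26, adjusted p = 0.0464) but fell in MV3 (-0.48, adjusted p = 0.000995). THBS1, a secreted matrix protein gene, fell in A549 (-0.88) and rose in ES2 (1.26) and MV3 (0.25). CDC34 was called in PANC1 only (0.83, adjusted p = 0.00227). These PANC1 rises depend on the scaling: with equal FPKM sums CDC34 was at 0.09, MYC at -0.37 and WDR82 at -0.42, none of them called. The median over all PANC1 genes was then -0.68, and these genes stayed above it. With equal read sums CDC34 (0.67, adjusted p = 0.00188) and MYC (0.20, adjusted p = 0.0489) were still called higher, and WDR82 (0.16, adjusted p = 0.090) was not called.

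Over the 24 libraries and 11112 protein-coding genes, the mRNA levels most correlated with IGF2BP1 were BLM (r = 0.971), NUDT19 (0.963) and CSNK2A1 (0.931). For IGF2BP2 they were ZNF785 (0.985), STMN3 (0.979) and LAMA4 (0.978), and for IGF2BP3 IQGAP1 (0.951), FAIM (0.938) and NXT2 (0.937). For LIN28B they were IL4R (0.963), RASGRF2 (0.941) and TOPORS (0.936), for HMGA1 DNTTIP1 (0.968) and THOP1 (0.962), and for HMGA2 TRAPPC6B (0.965), COPB1 (0.960) and KISS1 (0.957). These 24 points form 8 groups of 4 lines.

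Pseudogene and antisense entries named after the members were low. HMGA1P8 and HMGA1P2 had up to 20 and 24 reads per library in MV3, LIN28AP1 had at most 2 reads, and the antisense genes IGF2BP2-AS1 and LIN28B-AS1 had at most 8 and 0 reads.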
